A study of Mus musculus with 6 samples.

Results

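The DNA replication machinery was followed here as 43 genes, taken by symbol from the 6 deposited tables. All 43 symbols were among the 24421 listed, and all 43 passed the filter on low counts, as did 13848 symbols in all. They comprised the 6 subunits of the origin recognition complex, 3 licensing factors, the 6 MCM helicase subunits, 6 genes of helicase activation, 8 of polymerases and primase, 6 of the sliding clamp and its loader, 3 of the single-strand binding protein RPA, 2 of flap removal and ligation, and 3 of nucleotide supply. The samples were labelled whole embryo, strain C57BL/6N, embryonic day 9.5. Of the 6, 3 were labelled wild type and 3 were labelled homozygous for a knockout of Lphn2, which encodes the adhesion receptor latrophilin-2 (now Adgrl2). The labels state neither the deleted part of the gene nor whether a sample was 1 embryo, so each p-value reflects variation among these samples only, part of which may be technical. The series concerns the role of this receptor in heart development.

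Chromosomal DNA is copied once per cell cycle in steps that separate loading from firing. The origin recognition complex marks start sites, and Cdc6 and Cdt1 load the ring of Mcm2 to Mcm7 onto DNA before S phase, while geminin holds Cdt1 in check afterwards. At S phase Cdc45 and the GINS subunits join the ring to form the active helicase, polymerase alpha with primase starts each strand, polymerases delta and epsilon extend it on the clamp PCNA, and Fen1 and Lig1 join the lagging-strand pieces. Many of these genes are transcribed in late G1 and S phase under E2F factors. The early embryo divides fast, and trophoblast giant cells and decidual cells are known for repeated genome copying without division.

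The wild type tables held 18352150 to 36213611 counts and the knockout ones 14476809 to 23887717. Adgrl2, the targeted gene, stood at 10.9, 7.56 and 15.96 CPM in wild type and at 5.49, 1.67 and 2.78 CPM in the knockout, lower in all 3 (log2 fold change -1.78 ± 0.50, adjusted p = 0.194). Whether its 3' tags lie in the deleted part is not stated, so this checks the labels only in part. Levels are CPM, the count per 1e+06 counts of a library scaled by TMM, given in the order of replicates 1, 2 and 3. The assay counts 3' end tags, and how the tags of a gene with several transcripts were added up is not given in the sources used here, so levels are compared between libraries and not between genes. Knockout replicates 2 and 3 stood apart from the rest. They correlated best with each other over log CPM of all tested genes (r = 0.9612), while knockout replicate 1 correlated better with wild type replicates 1 and 2 (0.9556 and 0.9417) than with them (0.9094 and 0.9129). Wild type libraries also differed among themselves. Wild type replicate 3 correlated at 0.9341 with wild type replicate 1, but at 0.8865 with wild type replicate 2 and 0.8966 with knockout replicate 1. Decidua is maternal tissue and trophoblast belongs to the placenta, yet markers of both were counted in samples labelled whole embryo. The decidual prolactin-family gene Prl8a2 had a mean of 20572 CPM in wild type. The dissection is not described in the labels, so the levels below are those of the whole sample, whatever tissue it held. Trophoblast markers moved with the division between knockout libraries. The sum over 16 trophoblast markers was 5131 CPM in knockout replicate 1 and 81.3 and 179 CPM in replicates 2 and 3. Results are therefore also given without knockout replicate 1 and for it alone.

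None of the 43 genes passed the test over all genes with all 6 libraries (edgeR quasi-likelihood test, Benjamini-Hochberg adjusted p under 0.05), where 0.0505% of tested genes were called lower and 0% higher. The smallest adjusted p among them was 0.218, for Pola1. DESeq2 also called 0 of the 43 in either direction, against 2.87% of genes called lower and 3.49% called higher. At an unadjusted p under 0.05, 8 of the 43 were lower and 1 was higher, against 6.86% and 8.68% of all tested genes. The log2 fold change of knockout over wild type was below 0 for 39 of the 43, against 53.4% of all tested genes. Its median was -0.55 over the 43 and -0.039 over all tested genes. The knockout lay wholly below wild type in 8 genes (18.6% of the 43, against 9.39% of all tested genes), and wholly above it in 1 (2.33%, against 12.1%). The direction was thus shared by most of the genes, while no single gene differed by more than its spread allowed over the whole table.

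The lower values came mostly from 2 of the 3 knockout libraries. Knockout replicate 2 lay below all 3 wild type libraries in 33 of the 43 genes and replicate 3 in 34 (76.7% and 79.1%), against 31.4% and 31.7% of all tested genes. Knockout replicate 1 did so in 9 genes, lay above all 3 in 9 and within the wild type range in 25 (20.9%, 20.9% and 58.1%), near the shares over all tested genes (21.2%, 23.4% and 55.4%). Relative to the mean of wild type, the median difference on the scale of log2(CPM + 0.5) was 0.036, -0.26 and 0.15 in the wild type libraries and 0.011, -0.68 and -0.91 in the knockout libraries. Over all tested genes it lay between -0.020 and 0.013 in every library. Of the 43 genes, 26 were lowest in knockout replicate 3 and 10 in replicate 2, and 20 were highest in wild type replicate 3. Over all tested genes these shares were 17.5%, 18.1% and 24.8%, the last being the largest share of highest values in any library.

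**Figure D1:**
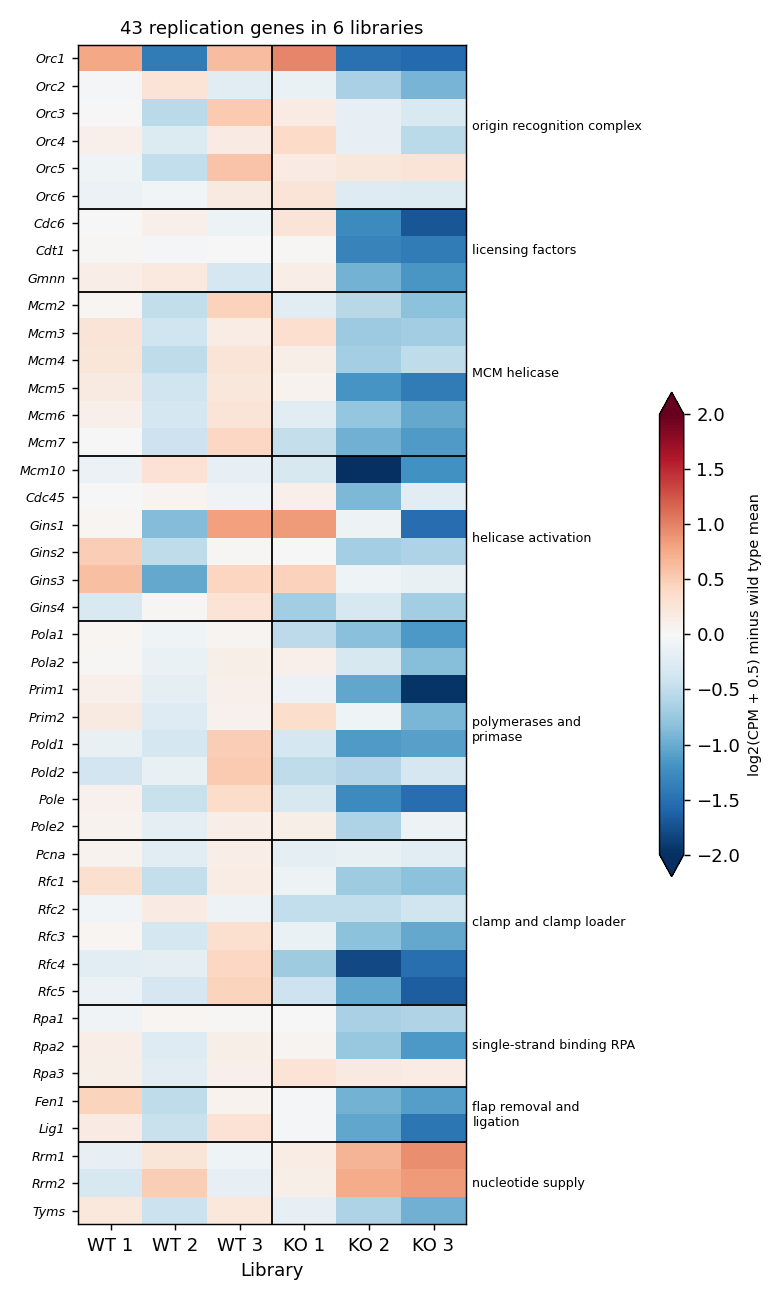
Each row is a replication gene, grouped by sub-complex, and each column a library; colour gives log2(CPM + 0.5) minus the wild type mean, cut at -2 and 2. Knockout replicates 2 and 3 (KO 2, KO 3) are blue over most rows, and Rrm1 and Rrm2 are red in them. Knockout replicate 1 has rows of both signs, from -0.71 for Rfc4 to 0.97 for Orc1, with a median of 0.011.

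A sequence feature was looked for in the windows from 250 bases before to 50 bases after the annotated starts. RefSeq windows (GRCm38.p6, the assembly of mm10) were at hand for 35 of the 43 genes, 43 windows in all. An E2F-type match was any of TTTCCCGC, TTTGGCGC, TTTGCCGC and TTTCGCGC on either strand. Such a match stood in the windows of 14 of the 35 genes (40%), against 4.64% of 10395 tested genes and 2.6% of all 27025 genes with a window. By window the shares were 32.6% for the replication genes and 2.26% for all 32851 windows of this length. The box CCAAT on either strand, which may share end bases with these matches, stood in 65.7% of the 35 genes and 41.1% of all genes. The 200 bases before the start are shown for Mcm5 and Mcm6, helicase genes with several matches and low values in knockout replicates 2 and 3, and for Rrm1 and Rrm2, which had no match and stood higher in those libraries. Capitals mark the E2F-type matches, read 5′ to 3′ along the gene, and the last bases of the Rrm2 window lie in the first exon of the GENCODE annotation.
Mcm5 (chr8:75109309-75109508, plus strand): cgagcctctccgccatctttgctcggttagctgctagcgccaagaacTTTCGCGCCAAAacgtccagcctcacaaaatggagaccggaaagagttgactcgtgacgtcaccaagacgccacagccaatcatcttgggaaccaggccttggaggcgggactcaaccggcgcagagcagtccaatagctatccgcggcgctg
Mcm6 (chr1:128359706-128359905, minus strand): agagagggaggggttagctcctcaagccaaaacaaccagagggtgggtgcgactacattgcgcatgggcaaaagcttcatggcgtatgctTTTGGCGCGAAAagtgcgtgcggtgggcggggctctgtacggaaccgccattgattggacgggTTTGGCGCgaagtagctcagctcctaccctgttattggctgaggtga
Rrm1 (chr7:102441495-102441694, plus strand): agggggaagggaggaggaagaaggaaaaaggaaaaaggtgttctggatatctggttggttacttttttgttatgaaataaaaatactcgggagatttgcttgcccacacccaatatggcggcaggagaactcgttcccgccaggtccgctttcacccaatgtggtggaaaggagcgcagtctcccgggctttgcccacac
Rrm2 (chr12:24708054-24708253, plus strand): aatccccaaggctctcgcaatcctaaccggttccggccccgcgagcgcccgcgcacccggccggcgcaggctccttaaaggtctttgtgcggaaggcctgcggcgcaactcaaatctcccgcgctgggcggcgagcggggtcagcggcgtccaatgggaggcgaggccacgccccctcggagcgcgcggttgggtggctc

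In Mcm5 the matches TTTCGCGC and, on the opposite strand, TTTGGCGC overlap and begin 153 and 149 bases before the start. Mcm6 holds 3 matches that begin 110, 106 and 47 bases before it, the first pair overlapping. Cdc6 has 1 match 138 bases before the RefSeq start of its window. That window begins at 98907901, inside the GENCODE gene, which starts at 98907801. Cdt1 has 1 match that begins 32 bases after its start. A match is a description of letters and shows no binding. The 14 genes with a match had a median log2 fold change of -0.66, all 14 below 0. The 21 with a window and no match had a median of -0.54, with 17 below 0. They included Rfc4 (-1.50) and Mcm10 (-1.13), both lower than Mcm5 (-0.71) and Mcm6 (-0.66). Gins3 (-0.068) and Orc3 (-0.15) had a match and small changes. Outside the replication list, 468 tested genes with a match had a median of -0.10, with 60.9% below 0, and 9892 with no match had a median of -0.030, with 52.7% below 0. No test was made of these differences.

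By their medians, licensing factors had the widest division between the knockout libraries of the 9 groups. Cdc6 (chromosome 11, 98907801 to 98923940), which helps to load the helicase, stood at 45.6, 48.6 and 42.3 CPM in wild type and at 54.2, 18.5 and 13.5 CPM in the knockout. Cdt1 (chromosome 8, 122568015 to 122573554), its partner in loading, stood at 46.8, 45.4 and 45.9 CPM in wild type and at 46.8, 17.9 and 17.2 CPM in the knockout. Gmnn, the gene of the Cdt1 inhibitor geminin, stood at 25.8, 27.1 and 18.4 CPM in wild type and at 25.9, 12 and 10.2 CPM in the knockout. In all 3 genes, knockout replicates 2 and 3 lay below the lowest wild type value and knockout replicate 1 within or above the wild type range, so the groups overlapped. For Cdt1 the 3 wild type values and knockout replicate 1 were close together. The log2 fold changes were -0.66 ± 0.49, -0.75 ± 0.39 and -0.56 ± 0.38 (SE), with adjusted p of 0.554, 0.404 and 0.518.

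Without knockout replicate 1, 3 of the 43 genes were called lower and 0 higher, against 3.27% and 1.77% of the 14249 genes tested there. Cdt1 fell by 1.39 on the log2 scale (adjusted p = 0.0193), Cdc6 fell by 1.50 (adjusted p = 0.0259) and Mcm5 fell by 1.32 (adjusted p = 0.04004). With knockout replicate 1 alone against wild type, their log2 fold changes were 0.044, 0.27 and 0.074. A knockout arm of 1 library gave the same adjusted p, 0.9995, for all 43 genes and has no bearing on single ones. Over the other alternatives adjusted p ranged from 0.0193 to 0.781 for Cdt1, from 0.0259 to 0.883 for Cdc6 and from 0.04004 to 0.815 for Mcm5, each highest without knockout replicate 2. Mcm5 is named for this call, after its values were seen.

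The MCM genes, which encode the 6 subunits of the helicase ring, all had log2 fold changes below 0, from -0.89 to -0.30. Mcm7 (chromosome 5, 138164583 to 138172422) stood at 47.7, 35.4 and 63.7 CPM in wild type and at 33.96, 24.1 and 21.4 CPM in the knockout. The groups did not overlap, and their means were 48.9 ± 14.2 against 26.5 ± 6.62 CPM (SD, n = 3 each). Its log2 fold change was -0.89 ± 0.28 (SE, adjusted p = 0.221), and its adjusted p over the same alternatives ranged from 0.0608 to 0.588. Mcm5 (chromosome 8, 75109569 to 75128439) stood at 63.8, 42.7 and 66.3 CPM in wild type and at 59.7, 24.8 and 21.2 CPM in the knockout. Here knockout replicate 1 lay within the wild type range and replicates 2 and 3 at or under 24.8 CPM, below the lowest wild type value of 42.7 CPM. In Mcm2, Mcm3, Mcm4 and Mcm6 the groups also overlapped, with adjusted p from 0.309 to 0.694. The 6 genes also varied within wild type, where their median difference was 0.14, -0.41 and 0.26 in wild type replicates 1 to 3 and -0.064, -0.75 and -0.92 in the knockout libraries.

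Origin recognition genes had the median closest to 0 of all groups. Over Orc1 to Orc6 it was -0.11, 5 of 6 were below 0, and in all 6 the groups overlapped. Orc2, a core subunit, had the smallest p. It stood at 59.96, 75.1 and 52.5 CPM in wild type and at 56.6, 39.2 and 32.2 CPM in the knockout (log2 fold change -0.55 ± 0.25, adjusted p = 0.357). Orc1, the subunit whose level varies with the cell cycle, had 4.49, 0.609 and 3.998 CPM in wild type and 5.22, 0.533 and 0.499 CPM in the knockout. Its low values were not confined to the knockout group, since wild type replicate 2 held only 10 tags, beside 8 and 7 in knockout replicates 2 and 3. Orc3, Orc4, Orc5 and Orc6 had log2 fold changes between -0.15 and 0.16.

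The genes that turn the loaded ring into a moving helicase had log2 fold changes below 0 in 6 of 6, with a median of -0.37. Mcm10, which helps the helicase start, stood at 23.1, 30.5 and 22.2 CPM in wild type and at 19.8, 4.13 and 10.5 CPM in the knockout. Its groups did not overlap, though knockout replicate 1 was close to the lowest wild type library (log2 fold change -1.13 ± 0.51, adjusted p = 0.348). Gins4, a GINS subunit, stood at 12.2, 15.5 and 18.4 CPM in wild type and at 9.14, 12.1 and 9.12 CPM in the knockout (log2 fold change -0.60 ± 0.25, adjusted p = 0.315). The highest knockout value of Gins4 was in replicate 2 and lay just under the lowest wild type value, with replicates 1 and 3 nearly equal. Cdc45, Gins1, Gins2 and Gins3 overlapped between groups, with log2 fold changes from -0.46 to -0.068. Gins1 and Gins3 rested on as few as 4 and 16 tags in a library, which limits what could be seen in them.

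**Figure D2:**
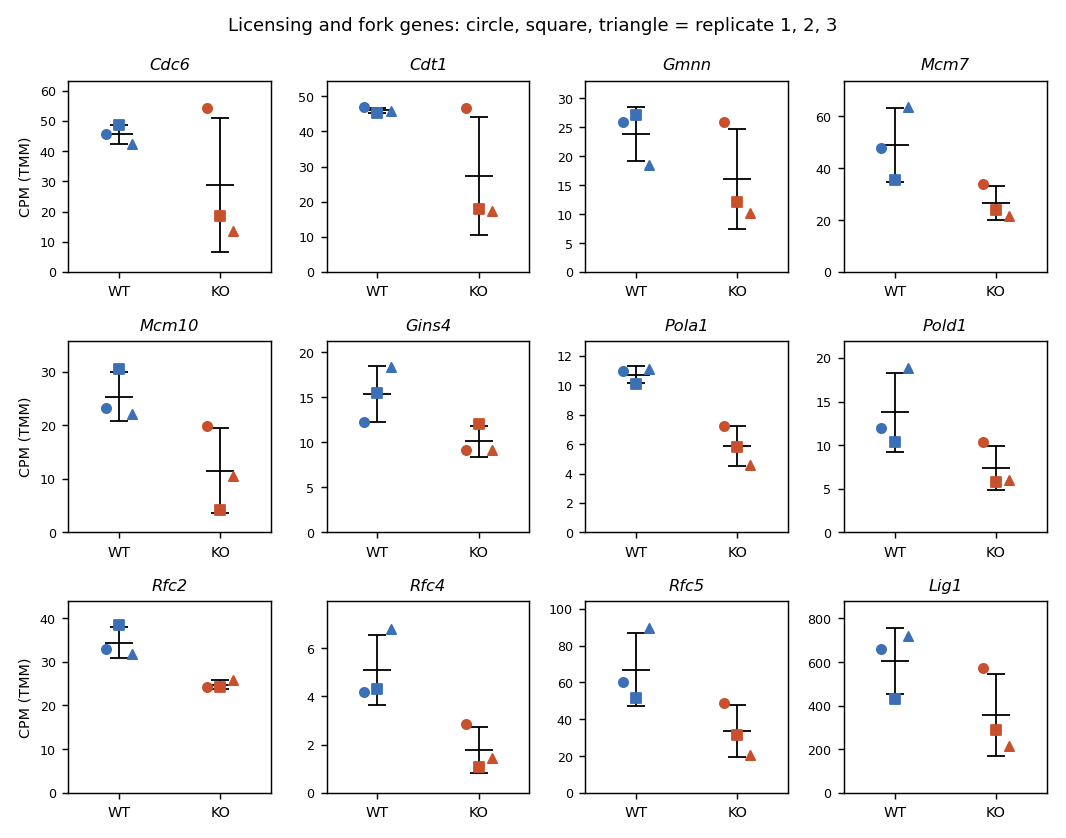
Levels of 12 licensing and fork genes in TMM-scaled CPM, each panel from 0; points are libraries (circle, square and triangle for replicates 1, 2 and 3), and bars give mean ± SD of 3. For Cdc6, Cdt1 and Gmnn the circle of the knockout group stands with wild type, while for Mcm7, Pola1 and Rfc2 all 3 knockout points lie below the wild type points.

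Polymerase and primase genes were below 0 in 8 of 8, with a median of -0.71. Pola1 (chromosome X, 93304767 to 93632155), the catalytic subunit of polymerase alpha, stood at 10.98, 10.1 and 11.1 CPM in wild type and at 7.26, 5.8 and 4.56 CPM in the knockout. The wild type libraries were close together and all 3 knockout libraries lay under them, with means of 10.7 ± 0.564 against 5.87 ± 1.35 CPM (SD, n = 3 each; log2 fold change -0.86 ± 0.27, SE). Pold1, the catalytic subunit of polymerase delta, stood at 11.99, 10.4 and 18.9 CPM in wild type and at 10.3, 5.8 and 5.99 CPM in the knockout, and its knockout replicate 1 lay just under the lowest wild type library (log2 fold change -0.90 ± 0.35, adjusted p = 0.296). The remaining 6 genes overlapped between groups, with adjusted p from 0.397 to 0.892. Among them Pole, the catalytic subunit of polymerase epsilon, had the lowest log2 fold change of all 43, -1.53 ± 0.83, but was counted with 40, 14 and 72 tags in wild type and 25, 4 and 2 tags in knockout libraries.

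Clamp loader genes held 3 of the 8 that did not overlap. Rfc2, a small loader subunit, stood at 32.9, 38.4 and 31.7 CPM in wild type and at 24.2, 24.2 and 25.9 CPM in the knockout. Knockout replicate 1 was here as low as the other knockout libraries, and the log2 fold change was -0.47 with all 3, -0.454 without it and -0.483 for it alone. Rfc4 stood at 4.202, 4.33 and 6.79 CPM in wild type and at 2.86, 1.07 and 1.43 CPM in the knockout (log2 fold change -1.50 ± 0.49, adjusted p = 0.229). Rfc5 stood at 60.2, 51.4 and 89.4 CPM in wild type and at 48.6, 31.4 and 20.5 CPM in the knockout (log2 fold change -0.999 ± 0.35, adjusted p = 0.257). In both genes knockout replicate 1 lay between the wild type libraries and the other knockout libraries. Pcna, the clamp itself, differed little: it stood at 20.3, 16.7 and 21.2 CPM in wild type and at 16.7, 17.3 and 16.5 CPM in the knockout, and its log2 fold change lay between -0.29 and -0.14 over all alternatives. Rfc1, the large subunit, and Rfc3 overlapped between groups, at -0.56 and -0.66.

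The 3 subunits of RPA, which coats single-stranded DNA, did not share a direction. Rpa1, the large subunit, stood at 66.7, 72.03 and 71.6 CPM in wild type and at 70.3, 44.5 and 46.05 CPM in the knockout. Rpa2, the middle one, stood at 115, 86.9 and 113 CPM in wild type and at 108, 61.1 and 46.5 CPM in the knockout. In both, knockout replicates 2 and 3 lay below all other libraries, and the adjusted p was 0.429 and 0.453. Rpa3, the small subunit, stood at 5.11, 3.96 and 5.095 CPM in wild type and at 5.804, 5.4 and 5.27 CPM in the knockout, the only gene of the 43 whose knockout values all lay above wild type. That difference was small (log2 fold change 0.22 ± 0.28, adjusted p = 0.7401). Flap removal and ligation followed the fork genes. Fen1, the flap nuclease, stood at 141, 72.4 and 109 CPM in wild type and at 100.4, 53.8 and 47.9 CPM in the knockout, and Lig1, the ligase, at 658, 432 and 719.8 CPM in wild type and at 572, 288 and 216 CPM in the knockout. Wild type replicate 2 was the lowest wild type library in both, below knockout replicate 1, and the adjusted p was 0.407 and 0.398.

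**Figure D3:**
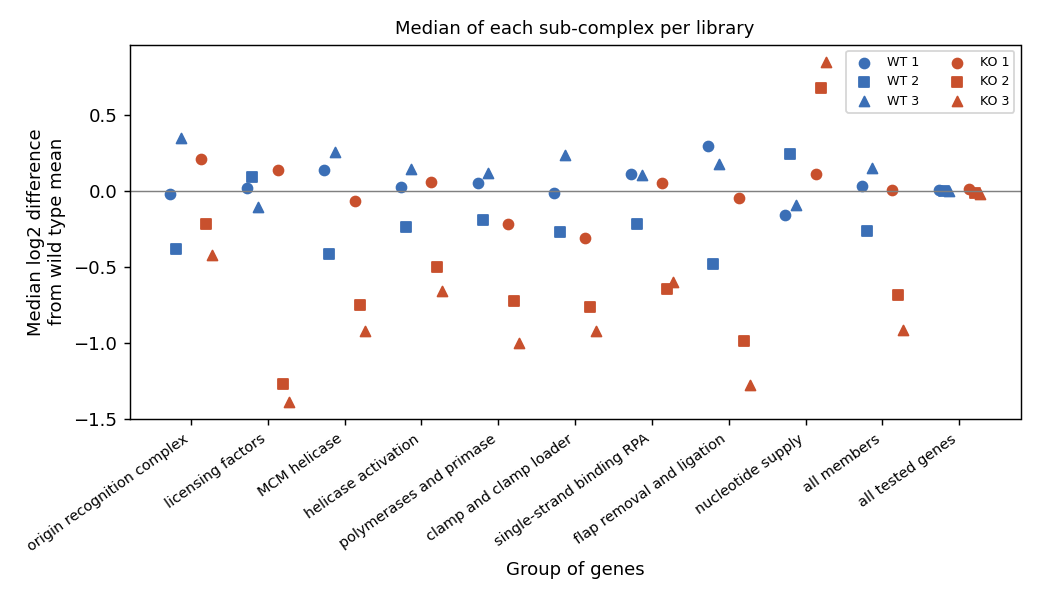
Median over each group of genes of log2(CPM + 0.5) minus the wild type mean, 1 point per library (blue wild type, red knockout; shape gives the replicate). Licensing factors lie at -1.27 and -1.39 in knockout replicates 2 and 3 and at 0.14 in replicate 1, and all tested genes lie near 0. Nucleotide supply lies above 0 in all 3 knockout libraries, but its 0.12 in replicate 1 is below the 0.25 of wild type replicate 2. Tyms, 1 of its 3 genes, is below 0 in all 3 knockout libraries.

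Ribonucleotide reductase ran against the rest of the list. Its large subunit Rrm1 (chromosome 7, 102441695 to 102469771) stood at 105, 138 and 109.6 CPM in wild type and at 129, 187 and 223 CPM in the knockout. The small subunit Rrm2 (chromosome 12, 24708241 to 24714146) stood at 400.0, 707 and 446 CPM in wild type and at 544, 839 and 907 CPM in the knockout. Both were highest in knockout replicates 2 and 3, the libraries in which most fork genes were lowest, and both were higher in wild type replicate 2 than in the other wild type libraries and knockout replicate 1, so the groups overlapped. The log2 fold changes were 0.61 ± 0.24 and 0.56 ± 0.29 (SE, adjusted p = 0.294 and 0.406). They stayed above 0 under every alternative run, from 0.154 to 0.804 for Rrm1 and from 0.0914 to 0.863 for Rrm2. Tyms, thymidylate synthase, which makes the thymine nucleotide, stood instead at 28.5, 18.04 and 28.3 CPM in wild type and at 21.8, 15.7 and 12.3 CPM in the knockout (log2 fold change -0.59 ± 0.29, adjusted p = 0.3803). With Rpa3 and Orc5, the reductase genes were the 4 of 43 with a log2 fold change above 0.

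Other enzymes of nucleotide supply, from a list of 9 kept apart from the 43, had values in both directions. In 3 of the 9 the knockout lay wholly above wild type (33.3%, against 12.1% of all tested genes), and in 0 below (against 9.39%). Samhd1, which degrades deoxynucleotides, stood at 594, 768 and 405 CPM in wild type and at 1043, 1349.8 and 1247 CPM in the knockout (log2 fold change 1.04 ± 0.26, adjusted p = 0.176). Dck, which phosphorylates salvaged deoxycytidine, stood at 49.2, 46.7 and 50.2 CPM in wild type and at 58.4, 78.1 and 81.2 CPM in the knockout (log2 fold change 0.57 ± 0.18, adjusted p = 0.2198). Dut, which clears deoxyuridine triphosphate, stood at 264, 309.7 and 293 CPM in wild type and at 331, 431 and 429 CPM in the knockout (log2 fold change 0.46 ± 0.18, adjusted p = 0.289). In these 3, unlike the reductase, knockout replicate 1 also lay above all wild type libraries. The other 6 enzymes overlapped between groups, and 5 of the 9 had a log2 fold change below 0.

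**Figure D4:**
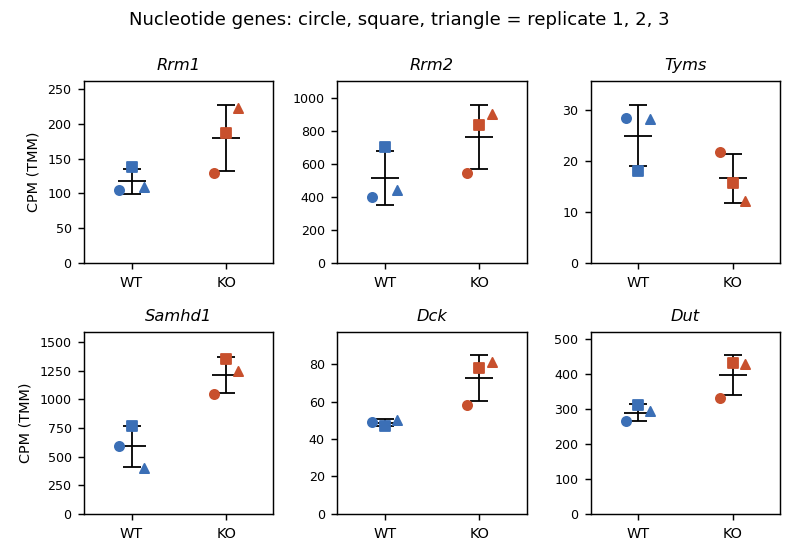
Levels of 6 nucleotide genes in TMM-scaled CPM, each panel from 0, drawn as points per library (circle, square and triangle for replicates 1, 2 and 3) with mean ± SD of 3. Rrm1 and Rrm2 overlap between groups, Tyms is lower by its mean in knockout libraries, and Samhd1, Dck and Dut have all knockout points above wild type.

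The remaining pathway lists had negative medians and no gene past the threshold. Without the nucleotide enzymes they held 54 genes, of which 53 were tested and 47 were below 0, with a median of -0.47. By edgeR and an adjusted p, 0 of the 53 were called in either direction. At an unadjusted p under 0.05, 5 of the 53 were lower and 0 higher, against 6.86% and 8.68% of all tested genes. All knockout values lay below wild type in 7 of the 53 (13.2%, against 9.39% of all tested genes) and above in 0 (against 12.1%). Among origin firing and fork factors, 4 of 22 lay wholly below wild type in the knockout (18.2%, against the same 9.39%). Cdc7, the kinase that fires origins, stood at 29.9, 26.1 and 39.1 CPM in wild type and at 22.7, 12.3 and 12.8 CPM in the knockout (log2 fold change -0.99 ± 0.30, adjusted p = 0.215). Top1, which relieves twist ahead of the fork, and the MCM relative Mcm8 stood at 126 ± 3.01 against 98.4 ± 15.3 CPM and at 3.94 ± 0.878 against 1.44 ± 1.18 CPM (adjusted p = 0.362 and 0.3904). Mcm8 was counted with only 4 and 20 tags in knockout replicates 2 and 3. Pold3, a polymerase delta subunit, stood at 13.5 ± 1.93 against 8.75 ± 2.32 CPM (adjusted p = 0.343). Chaf1a, of the chromatin assembly factor that follows the fork, stood at 19.7, 17.7 and 23.9 CPM in wild type and at 15.4, 8.13 and 5.56 CPM in the knockout (adjusted p = 0.261). E2f2, one of the factors that activate replication genes, stood at 7.68, 6.03 and 23.05 CPM in wild type and at 2.71, 0.4 and 1.07 CPM in the knockout (log2 fold change -3.10 ± 0.80, adjusted p = 0.178). It was counted with 212, 99 and 882 tags in wild type, and with only 6 and 15 in knockout replicates 2 and 3. The other 12 genes of the E2F and pocket protein list overlapped between groups, and the median of the list was -0.22. The 4 genes of the S phase cyclin list were all below 0, with a median of -0.51, and overlapped in all 4.

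Markers of several tissues also differed between the libraries, in part in nearly the order of the replication genes and in part in another. In knockout replicate 1 the erythroid and yolk sac sums (1453 and 298 CPM) lay below wild type, while its replication median was 0.011. The trophoblast sum divided the knockout libraries as the replication genes did (5131, 81.3 and 179 CPM). Within wild type that sum was lowest in replicate 3 (1827 CPM), where the replication median was highest (0.15). The neural sum was 124, 67.4 and 963 CPM in wild type and 72.9, 24.3 and 28.2 CPM in the knockout. The replication medians (0.036, -0.26 and 0.15, then 0.011, -0.68 and -0.91) had the same order, except between knockout replicates 2 and 3. The mesoderm sum departed from it also in knockout replicate 1 (29.4 CPM), which lay below wild type replicate 2 (45.2 CPM). Fewer cells of a type and less RNA per cell cannot be told apart in such bulk samples. Of 14 decidual markers, 10 had a log2 fold change above 0, and all knockout values lay above wild type in 8 and below it in 2. Over all tested genes the knockout lay wholly above wild type in 12.1% and wholly below it in 9.39%. The counts of each list below are to be read beside these shares. Their sum was 19084 to 33742 CPM in wild type and 8495 to 13765 CPM in knockout libraries, but 1 gene, Prl8a2, set that order. Without Prl8a2 the other 13 summed to 3139.5 to 4996 CPM in wild type and 5595 to 8429.8 CPM in knockout libraries, the opposite order. Primitive erythroid markers (10 genes) summed to 3724 to 6481 CPM in wild type and 825 to 1453 CPM in knockout libraries, with all knockout values below wild type in 6 of the 10. Yolk sac markers (12 genes, 11 tested) summed to 502 to 734 CPM in wild type and 140.2 to 298 CPM in knockout libraries, with 7 wholly below wild type. Neural markers (12 genes, 9 tested) summed to 67.4 to 963 CPM in wild type and 24.3 to 72.9 CPM in knockout libraries. Paraxial and cardiac mesoderm markers (11 genes, 6 tested) summed to 45.2 to 296 CPM in wild type and 12.7 to 29.4 CPM in knockout libraries. Wholly below wild type were 3 of the 9 and 4 of the 6 tested. Both upper ends were wild type replicate 3, while wild type replicates 1 and 2 held 124 and 67.4 CPM of neural and 89.2 and 45.2 CPM of mesoderm markers. Natural killer and macrophage markers (10 genes) summed to 303 to 698 CPM in wild type and 482 to 582 CPM in knockout libraries, while 9 of the 10 had a log2 fold change above 0 (median 0.82). All knockout values lay above wild type in 4 of them, Gzma, Gzmb, Prf1 and Ptprc, and below in 1, Csf1r. Without Csf1r the other 9 summed to 136 to 255 CPM in wild type and 327 to 524 CPM in knockout libraries. Trophoblast markers (16 genes, 13 tested) summed to 1827 to 7657 CPM in wild type and 81.3 to 5131 CPM in knockout libraries, with 13 below 0 and 1 wholly below wild type. In knockout replicate 2, Prl3b1, Prl7a2, Gcm1, Ctsq and Psg21 were at 0 counts, and in replicate 3 Gcm1, Ctsq and Psg21. The decidual marker Igfbp1, the erythroid markers Gata1 and Epor, and the yolk sac markers Apoa4, Amn, Cubn and Foxa1 were at 0 counts in both of these libraries. The part of these tissues in the levels of the replication genes was not tested.

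Whether the knockout group as a whole differed in replication genes depended on which libraries stood for it. With knockout replicate 1 alone, 21 of the 43 were below 0 and 22 above, with a median of 0.026. Without it, 39 were below 0 and the median was -0.81. Without knockout replicate 2 or 3 the medians were -0.43 and -0.35, with 35 and 34 below 0. Without wild type replicate 1, which alone carries the number 32 in its description while the other 5 samples carry 45, the median was -0.46, with 38 below 0. The meaning of that number is not stated. Over the 18 fits, 21 of the 43 genes stayed below 0 in every fit that tested them and 3 stayed above 0 (Rpa3, Rrm1 and Rrm2), while 19 changed sign at least once.

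**Figure D5:**
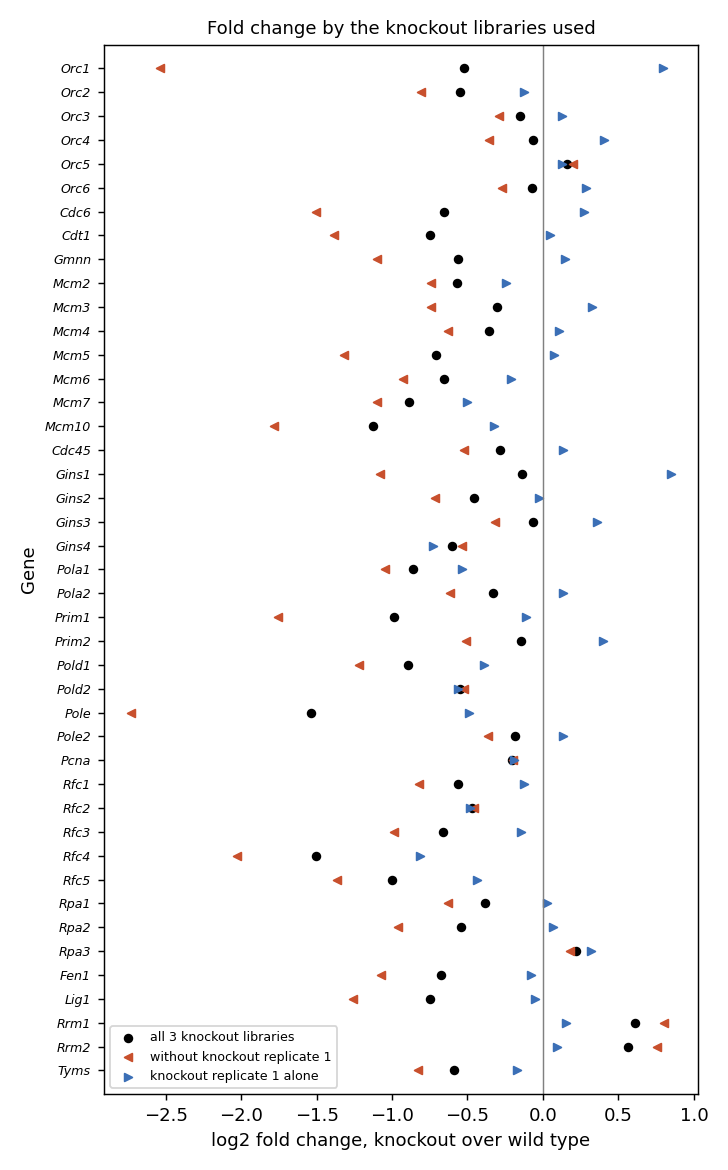
Log2 fold change of knockout over wild type for each of the 43 genes with all 3 knockout libraries (black), without knockout replicate 1 (red) and for knockout replicate 1 alone (blue). The red points lie left of the black ones for most genes, the blue ones lie on both sides of 0, and for Rfc2, Pcna and Pold2 the 3 points nearly coincide.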

How the data were processed

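Libraries of 3' end tags were made with the Lexogen Quant-Seq kit from 500 ng of Trizol-extracted total RNA, per the labels' protocols. The authors deposited whole-number counts per gene symbol, without normalization, 1 table per sample. Bowtie2, edgeR and the build mm10 are named per the submitters' processing notes, while versions, annotation and strand handling were not given in the sources used here. Groups came from the sample titles.

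Genes were kept with filterByExpr (minimum count of 10) and scaled by TMM, and the 2 genotypes were tested with edgeR 4.0.16 in R 4.3.3 (quasi-likelihood fit), two-sided, with no covariate, adjusted by Benjamini-Hochberg over all 13848 genes. SE is the absolute log2 fold change divided by the square root of F. DESeq2 1.42.0 and voom of limma 3.58.1 were alternatives, beside other scalings and filters, the replicate block and leaving out each library. The members and lists were chosen with earlier results of these data known. Named genes were, per sub-complex, those whose groups did not overlap (at most 3), otherwise that with the smallest p, and whole sub-complexes of 3 or fewer; from each other pathway list, up to 3 whose groups did not overlap. In 5 of the 43 genes (Orc3, Mcm5, Rpa1, Tyms and Fen1) all 6 counts shared a divisor above 1. Gene positions are from GENCODE M21 on mm10. Figures used Python 3.11.15 and matplotlib 3.10.9.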

Additional observations from a re-analysis of the deposited data

How the results depend on the processing

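Over all genes, 0 were higher and 7 lower in the knockout. DESeq2 gave 470 and 387, and leaving out 1 library gave 0 to 252 higher and 0 to 466 lower, both upper ends without knockout replicate 1. The count of lower genes was 0 with the replicate block, with 1 symbol kept per identical set, and with knockout replicate 1 alone (chosen after seeing the data). Of the replication genes, 0 were called under every alternative except without knockout replicate 1, where 3 were lower (range 0 to 3 over left-out libraries). Their median of -0.55 lay between -0.81 and -0.35 over left-out libraries, between -0.51 and -0.57 under the other scalings, filters and tools, and at 0.026 with knockout replicate 1 alone, where every member had the same adjusted p, 0.9995. There 18 of the 39 genes below 0 turned positive (0.026 to 0.85), the largest being Gins1 (0.85), Orc1 (0.80), Orc4 (0.41) and Prim2 (0.40); among the genes given in full were Cdt1 (0.044), Gmnn (0.14), Cdc6 (0.27), Mcm5 (0.074), Rpa1 (0.026) and Rpa2 (0.065). The cause was not tested. Requiring 5 CPM in 3 libraries kept 36 of the 43. With the replicate block the median was -0.56. Deviations from group means correlated at 0.127, -0.0238 and 0.0706 for replicates 1, 2 and 3. Wild type replicates 1 and 3 correlated best with the knockout of their own number, the latter narrowly (0.0706 against 0.0673). Wild type replicate 2 did not. With 3 samples per group these values cannot tell whether equal numbers mark pairs. Low counts limit Orc1, Gins1, Gins3, Prim1, Pole and Rfc4, whose lowest library held 2 to 16 counts.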
